A study of Mus musculus with 4 samples.

Results

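Tumour-associated macrophages were examined for 9 G-protein-coupled receptors that bind metabolites and lipids: Hcar2, Sucnr1, Gpr84, Ffar2, Ffar4, Gpr35, Gpr65, Gpr132 and Gpr183. They were chosen by name from the 53379 mouse genes in the count table, and each symbol matched 1 Ensembl identifier. Of the 9 receptors, 8 had enough reads to be tested and Sucnr1 had 0 counts in every library. Mice on a high-fat diet (HFD, 2 mice) were compared with mice on a control diet (CD, 2 mice). All were C57BL/6J mice that carried tumours of MC38, a colon carcinoma line of this strain, for 21 days. Cells positive for CD45, CD11b and F4/80 were sorted from the tumours and their polyA RNA was sequenced, 1 library per mouse. The composition of the diets, the time on them, and the age and sex of the mice were not given in the sources used here. The sort selects on surface proteins shared by macrophages, monocytes and some granulocytes, so each library is a bulk sample of all cells that passed the gate.

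These receptors let cells read small molecules in their surroundings. A bound ligand turns on heterotrimeric G proteins: the Gi class lowers cyclic AMP, the Gs class raises it, and arrestins and receptor kinases end the signal. In macrophages such receptors are known to respond to ketone bodies, fatty acids, acid and oxysterols, molecules whose supply can differ in tumours and with the diet of the host.

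The 4 libraries contained 34148682 to 37159552 counts, and 18422 genes passed the filter on low counts. Levels are CPM, read counts scaled to a common library size and adjusted by TMM, a correction for differences in RNA composition. Fold changes are from edgeR's quasi-likelihood test of HFD over CD, and calls were made at a Benjamini-Hochberg adjusted p below 0.05 over all genes tested. By this rule 10.5% of all genes were called, 2.61% higher and 7.91% lower in the HFD libraries, and 7.86% of genes with a mean log2 CPM of 3 or more, the range of 6 of the receptors. Of the 8 receptors tested, Hcar2, Gpr132 and Gpr35 fell, Gpr65 rose, and Gpr84, Ffar2, Ffar4 and Gpr183 were not called. The share among the receptors, 4 of 8, has no test, since the receptors were named with earlier results of these data known. The median log2 fold change was -0.95 over the 8 receptors and 0.0050 over all genes tested. HFD and CD libraries were fully separate for 7 of the 8, against 63.8% of all genes tested, so separation of the libraries is common in this comparison. All 4 calls held without CD mouse 1 or CD mouse 2, when 13% and 23.3% of genes were called. All 4 ended without HFD mouse 1 or HFD mouse 2, when 1.87% and 2.16% of genes were called. In those fits the lone HFD library is assumed to vary as the CD pair does.

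**Figure D1:**
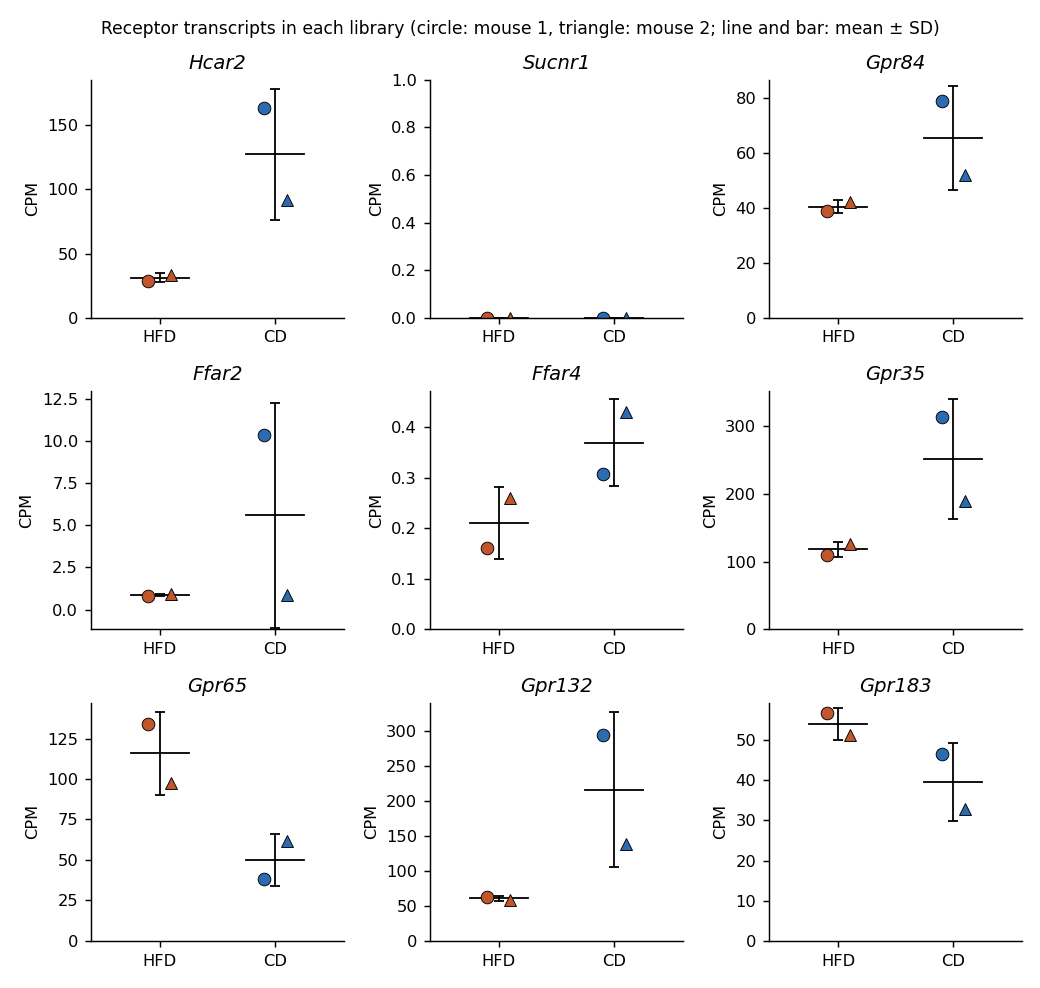
CPM of each receptor in each library (HFD left, CD right; circle mouse 1, triangle mouse 2), with the mean and SD of the 2 mice of a diet. Hcar2, Gpr35 and Gpr132 lie lower and Gpr65 lies higher in both HFD libraries than in either CD library, Ffar2 is high in CD mouse 1 alone, and Sucnr1 is at 0 throughout.

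Hcar2, the receptor for the ketone body beta-hydroxybutyrate and for niacin, showed the largest fall among the 4 called receptors. This Gi-coupled receptor is known for restraining lipolysis in fat cells and is also made by macrophages and neutrophils. The gene has a single exon on chromosome 5 (123863570 to 123865499, minus strand, GRCm38). Hcar2 had 28.6 and 33.5 CPM in the HFD libraries, against 163 and 91.4 CPM in the CD libraries. Both CD mice lay above both HFD mice, and the CD mice differed from each other far more than the HFD mice did. Its mean was 31.1 ± 3.51 CPM in HFD and 127 ± 50.7 CPM in CD libraries (SD, n = 2 each), 4.09-fold lower in HFD (log2 fold change -2.03, SE 0.29, edgeR adjusted p = 0.0176). Without CD mouse 1, the higher of the pair, the log2 fold change was -1.55 and the call held (edgeR adjusted p = 0.0033). Without HFD mouse 1 it was -1.91 (edgeR adjusted p = 0.111) and without HFD mouse 2 it was -2.13 (0.0761). Its neighbour Hcar1, the lactate receptor, lies 11.2 kb upstream on the same strand and was listed at 0 counts in all 4 libraries.

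Among the acid-sensing receptors the changes ran in opposite directions. Gpr65, a Gs-coupled receptor that protons activate and that raises cyclic AMP, rose. Gpr132 is a relative of the proton-sensing receptors for which lysophospholipids, oxidised fatty acids and lactate have been proposed as ligands, and it fell. Both genes lie on chromosome 12, Gpr65 at 98268635 to 98276644 on the plus strand and Gpr132 at 112850873 to 112868228 on the minus strand.

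Gpr65 had 134 and 97.5 CPM in the HFD libraries, against 38.5 and 61.4 CPM in the CD libraries. Its mean was 116 ± 25.8 CPM in HFD and 49.9 ± 16.2 CPM in CD libraries (SD, n = 2 each), 2.32-fold higher in HFD (log2 fold change 1.21, SE 0.27, edgeR adjusted p = 0.0429). Gpr65 was the only receptor called higher, and the same CD mouse that had the most Hcar2 had the least Gpr65. Its log2 fold change was 0.98 without HFD mouse 1 (edgeR adjusted p = 0.187) and 1.45 without HFD mouse 2 (0.0687), and with protein-coding nuclear genes alone in the test its adjusted p was 0.0563. An antisense transcript, Gm47566, shares 511 exon bases with Gpr65 on the opposite strand and was listed at 0 counts. The strand setting of the counting was not given in the sources used here, so reads of the shared bases cannot be assigned with certainty.

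Gpr132 had 63.2 and 58.7 CPM in the HFD libraries, against 295 and 138 CPM in the CD libraries. The HFD mice lay close together, and the CD mice stood 2.13-fold apart, both above the HFD mice. Its mean was 61 ± 3.22 CPM in HFD and 217 ± 111 CPM in CD libraries (SD, n = 2 each), 3.55-fold lower in HFD (log2 fold change -1.83, SE 0.35, edgeR adjusted p = 0.0323). CD mouse 1 carried much of the size: without it the log2 fold change was -1.18 (edgeR adjusted p = 0.00629). Its log2 fold change was -1.87 without HFD mouse 1 (edgeR adjusted p = 0.235) and -1.76 without HFD mouse 2 (0.194). With no filter on low counts, its adjusted p was 0.0871. Per kilobase of exon, the level of Gpr132 was 0.359 and 0.459 times that of Gpr65 in the HFD libraries, against 5.84 and 1.72 times in the CD libraries. Gpr65 was the more abundant transcript in both HFD mice, and Gpr132 in both CD mice. This ratio was chosen after the values were seen and has no test.

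Gpr35, a receptor for which kynurenic acid and lysophosphatidic acid have been proposed as ligands, is known from the gut and from myeloid cells. It lies on chromosome 1 (92950865 to 92986391, plus strand) and has 7 exon blocks. Gpr35 had 110.02 and 126 CPM in the HFD libraries, against 314 and 189 CPM in the CD libraries. It was the most abundant of the 9 receptors in CD libraries by CPM, and both CD mice exceeded both HFD mice. Its mean was 118 ± 11 CPM in HFD and 251 ± 88.3 CPM in CD libraries (SD, n = 2 each), 2.13-fold lower in HFD (log2 fold change -1.09, SE 0.26). The edgeR adjusted p of 0.0489 lay close to the threshold. It was 0.0567 with limma-voom, 0.0555 with protein-coding nuclear genes alone, 0.248 without HFD mouse 1 and 0.16 without HFD mouse 2. Without CD mouse 1 the log2 fold change was -0.68 (edgeR adjusted p = 0.0457).

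The sequence before the start sites is shown for the called receptors, since Gpr132 and Gpr35 fell while Gpr65 rose. RefSeq sequences (GRCm38.p6) were found for 8 of the 9 receptors, all but Hcar2. Bases before each start are given in lower case 5' to 3' on the strand of the gene, leaving out those that an annotated exon of the gene covers. Capitals mark matches on either strand to any of 5 motifs: the AP-1 site TGANTCA, the core of the cAMP response element TGACGT, the NR4A site AAAGGTCA, the PU.1 core GAGGAAG and the C/EBP site TTGCNNCAA. The lines are Gpr65 (chr12:98268385-98268634, plus strand), Gpr132 (chr12:112860953-112861166, minus strand), and the upstream (chr1:92972869-92973118) and downstream (chr1:92978653-92978902) starts of Gpr35, plus strand.
Gpr65: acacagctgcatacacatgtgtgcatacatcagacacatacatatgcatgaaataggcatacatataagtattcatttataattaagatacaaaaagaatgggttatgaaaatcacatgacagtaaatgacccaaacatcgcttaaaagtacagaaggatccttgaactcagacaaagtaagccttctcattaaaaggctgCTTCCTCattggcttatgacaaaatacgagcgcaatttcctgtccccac
Gpr132: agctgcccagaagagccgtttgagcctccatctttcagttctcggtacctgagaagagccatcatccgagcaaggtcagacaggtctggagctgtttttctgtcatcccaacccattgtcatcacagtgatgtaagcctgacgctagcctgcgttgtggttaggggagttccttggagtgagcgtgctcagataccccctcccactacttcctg
Gpr35 upstream start: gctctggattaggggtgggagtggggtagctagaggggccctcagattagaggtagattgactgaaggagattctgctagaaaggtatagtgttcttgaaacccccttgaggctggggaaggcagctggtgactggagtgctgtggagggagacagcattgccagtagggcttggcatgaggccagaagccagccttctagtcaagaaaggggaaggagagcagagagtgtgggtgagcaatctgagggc
Gpr35 downstream start: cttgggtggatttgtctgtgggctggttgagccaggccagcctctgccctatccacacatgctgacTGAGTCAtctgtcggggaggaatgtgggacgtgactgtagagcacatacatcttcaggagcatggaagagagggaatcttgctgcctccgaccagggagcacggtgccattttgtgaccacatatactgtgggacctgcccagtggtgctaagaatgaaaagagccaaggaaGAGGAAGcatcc

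Gpr65 held 1 PU.1 core, on the minus strand. The downstream start of Gpr35 held 1 AP-1 site and 1 PU.1 core. Neither its upstream start nor Gpr132 held any of the 5 motifs in the window shown. The RefSeq starts shown for Gpr132 and Gpr35 lie inside the GENCODE genes, and the sequence before the 5' ends of those genes was not searched. Of the receptors not called, Sucnr1 and 1 of 4 starts of Ffar2 held an AP-1 site, and Ffar4 a PU.1 core. No motif overlapped another in these windows. Of 32851 RefSeq windows of 250 bases before a start, 6.75% held the AP-1 site, 6.47% the cAMP response element core, 1.34% the NR4A site, 10.6% the PU.1 core and 1.74% the C/EBP site. A match describes letters in the window and does not show a site in use.

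Among the receptors for fatty acids none was called, and their levels differed widely. Gpr84, a Gi-coupled receptor for medium-chain fatty acids that inflammatory stimuli induce in macrophages, had 38.8 and 42.3 CPM in the HFD libraries, against 78.9 and 52.1 CPM in the CD libraries. The diets did not overlap, and CD mouse 1 was again the highest. Its log2 fold change was -0.69 (SE 0.22, 95% interval -1.22 to -0.16 before adjustment, edgeR adjusted p = 0.0929). It was -0.96 and called without CD mouse 2 (edgeR adjusted p = 0.00509) and -0.36 without CD mouse 1 (0.206). With no filter on low counts its adjusted p was 0.0248. A lncRNA antisense to Gpr84, Gm49482, shares 681 exon bases with it in the annotation and is no row of the count table. Zfp385a, whose 3' end lies 3.28 kb upstream of Gpr84 on the same strand, had 169 and 182 CPM in HFD and 171 and 156 CPM in CD libraries.

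Ffar2, a receptor for acetate, propionate and butyrate that neutrophils make abundantly, had 0.828 and 0.912 CPM in the HFD libraries, against 10.3 and 0.887 CPM in the CD libraries. CD mouse 1 alone was high, with 335 counts, and CD mouse 2 lay between the HFD mice. Its log2 fold change was -2.68 (SE 1.02, edgeR adjusted p = 0.139) with all libraries and -0.02 without CD mouse 1 (0.98). Without CD mouse 2 it was -3.56 (edgeR adjusted p = 9.96e-05), a fit that sets the HFD pair against that 1 library. CD mouse 1 also had the highest level of some markers of granulocytes, but not of all. Of 11 mast cell and eosinophil markers, 6 were tested and 1 was called lower in HFD, and their summed level was 6.31 to 6.52 CPM in HFD and 11.3 to 49.9 CPM in CD libraries, with CD mouse 1 at the top. The eosinophil genes Prg2, Il5ra and Epx had 57, 36 and 7 counts in CD mouse 1 and 0 in each of the other 3 libraries. The neutrophil gene Retnlg, chosen like these 3 after its values were seen, had 22.6 CPM in CD mouse 1 and at most 2.34 CPM elsewhere. Other neutrophil genes were present in both CD mice. Ly6g, also chosen after its values were seen, had 10 counts in CD mouse 1 and 30 in CD mouse 2. S100a8 had 22.7 and 13.1 CPM in CD mouse 1 and CD mouse 2, against 1.95 and 1.43 CPM in the HFD libraries. The part of these markers in the Ffar2 value was not tested. In bulk RNA, fewer cells of a type and less RNA per cell cannot be told apart.

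Ffar4, the receptor for long-chain unsaturated fatty acids including omega-3 fatty acids, was close to the limit of detection. It had 6 and 10 counts in the HFD libraries, against 10 and 16 counts in the CD libraries. These are 0.16 and 0.261 CPM in HFD and 0.308 and 0.43 CPM in CD. The log2 fold change was -0.81 (SE 0.57, 95% interval -2.19 to 0.58, edgeR adjusted p = 0.376), an interval that includes changes of either sign at this depth.

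Gpr183, also called EBI2, is the receptor for dihydroxylated cholesterols and guides the migration of B cells and dendritic cells. It lies on chromosome 14 (121952551 to 121965195, minus strand), inside the gene Ubac2 on the opposite strand, with 0 shared exon bases. Gpr183 had 56.7 and 51.2 CPM in the HFD libraries, against 46.4 and 32.7 CPM in the CD libraries. The diets did not overlap, yet the gap between the nearest mice was smaller than the gap between the CD mice. Its log2 fold change was 0.45 (SE 0.20, 95% interval -0.04 to 0.93, edgeR adjusted p = 0.184). Without CD mouse 1 it was 0.72 and called (edgeR adjusted p = 0.0372), and without CD mouse 2 it was 0.22 (0.394). Ubac2 had 41.6 and 44.2 CPM in HFD and 48.8 and 40.7 CPM in CD libraries (log2 fold change -0.06, edgeR adjusted p = 0.814).

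Sucnr1, the succinate receptor, was listed at 0 counts in all 4 libraries. A count of 0 allows up to 3 counts, which is 0.0808 to 0.0813 CPM in the HFD libraries and 0.0807 to 0.0879 CPM in the CD libraries, for counting error only. A 0 in this table may not mean that a transcript was absent, because 5 of 13 mitochondrially encoded genes, mt-Co2 and mt-Co3 among them, were also at 0 while mt-Co1 had 10254 and 6825 CPM in HFD and 2791 and 4297 CPM in CD libraries. No annotated gene overlaps Sucnr1.

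**Figure D2:**
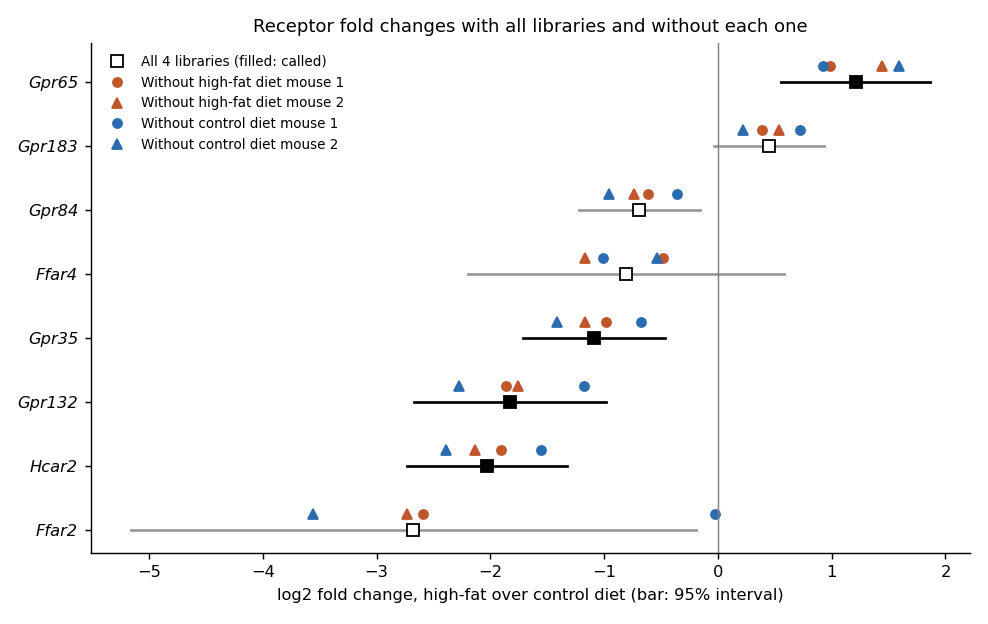
Log2 fold change of each tested receptor, HFD over CD, with all 4 libraries (square, filled where called, with its 95% interval before adjustment) and without each library in turn (circles and triangles). The estimates of Hcar2, Gpr132, Gpr35 and Gpr65 keep their sign in all 4 such fits, and that of Ffar2 goes to -0.02 without CD mouse 1.

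The order of the receptors by level differed between the diets. Dividing CPM by the kilobases of annotated exon puts genes of different length on 1 scale. On this scale Gpr65 was first in both HFD libraries, with 64.8 and 47.1 CPM per kb, and ranked 5 in both CD libraries, with 18.6 and 29.7 CPM per kb. In HFD libraries the mean levels after Gpr65 were 24.3 ± 2.27 CPM per kb for Gpr35, 23.5 ± 1.43 for Gpr84, 22.5 ± 1.18 for Gpr132, 18.7 ± 1.36 for Gpr183 and 16.1 ± 1.82 for Hcar2 (SD, n = 2). Gpr35, Gpr84 and Gpr132 did not differ beyond their spread there, and Gpr132 ranked 2 in HFD mouse 1 and 4 in HFD mouse 2. In CD libraries the means were 79.8 ± 40.8 CPM per kb for Gpr132, 65.9 ± 26.3 for Hcar2, 51.9 ± 18.2 for Gpr35, 38 ± 11 for Gpr84, 24.1 ± 7.84 for Gpr65 and 13.7 ± 3.35 for Gpr183. The mean ± SD of each overlapped that of its neighbour in the order, and the order was the same in both CD mice. Hcar2 ranked 6 in both HFD libraries and 2 in both CD libraries. Ffar2 and Ffar4 ranked 7 and 8 in every library.

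**Figure D3:**
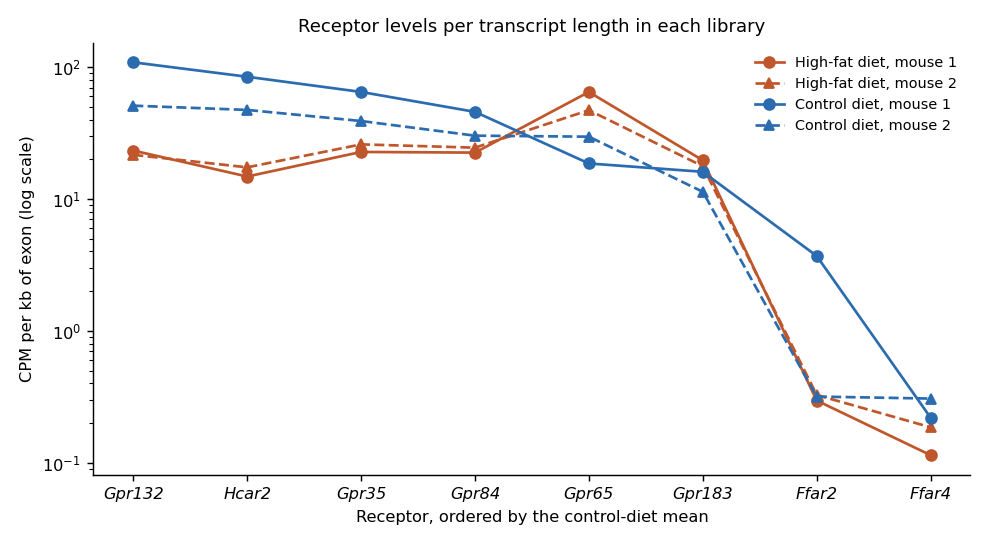
CPM per kb of exon (log scale) of the 8 tested receptors in each library, ordered by the CD mean. From Gpr132 to Gpr84 the CD libraries lie above the HFD libraries, at Gpr65 and Gpr183 the HFD libraries lie above, and Ffar2 and Ffar4 lie lowest in all 4.

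Genes whose profile over the 4 libraries was most like that of a receptor were ranked by the Euclidean distance between log2 CPM values centred on their mean, among 9317 protein-coding genes whose log2 CPM averaged 3 or more. The nearest to Hcar2 were Cass4, a scaffold protein of focal adhesions (distance 0.0508), and Dgat1, which makes triglycerides (0.124). The nearest to Gpr132 were Nr4a1, an orphan nuclear receptor of the immediate early class (0.0734), and Tiam1, an activator of the GTPase Rac (0.0744). Nr4a1 had 273 and 258 CPM in HFD and 1363 and 613 CPM in CD libraries. The nearest to Gpr35 were Stk40 (0.0494) and Tle3, a transcriptional corepressor (0.065), and the nearest to Gpr84 were Lrpap1 (0.0369) and Ccdc97 (0.0555). The nearest to Gpr65 were the chromatin protein gene Hmgb1 (0.0628) and Nusap1, a protein of the mitotic spindle (0.0685). The nearest to Gpr183 were Ust (0.0413) and Hspg2 (0.0529). With 4 libraries many genes share a profile, so these distances describe likeness only.

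Genes that act with these receptors were read from 9 lists. Of 30 other receptors for metabolites and lipids, 24 were tested, 3 rose and 5 fell (median log2 fold change -0.06). Over all genes tested, 2.61% rose and 7.91% fell. Lpar6, a receptor for lysophosphatidic acid, had 52.8 and 44.6 CPM in HFD and 14.9 and 20.1 CPM in CD libraries (2.78-fold higher, edgeR adjusted p = 0.0155), and it was called in each fit without 1 library. Lpar2, another such receptor, had 2.35 and 3.1 CPM in HFD and 9 and 10.8 CPM in CD libraries (3.63-fold lower, edgeR adjusted p = 0.0168). Cnr2, the cannabinoid receptor of immune cells, had 24.9 and 26.4 CPM in HFD and 43.9 and 47.8 CPM in CD libraries (1.78-fold lower, edgeR adjusted p = 0.0256). The bile acid receptor gene Gpbar1 had 1 and 3 counts in HFD and 29 and 29 counts in CD libraries (edgeR adjusted p = 0.0247). Calls of Cnr2 and Gpbar1 ended without either HFD mouse (edgeR adjusted p from 0.0884 to 0.165) and that of Lpar2 without HFD mouse 1 (0.0794). Over this list fewer genes were called without HFD mouse 1 or HFD mouse 2 and more without CD mouse 2, as over all genes tested.

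Downstream of the receptors, of 17 tested genes of adenylyl cyclases and cyclic AMP effectors, 4 fell and 0 rose (median log2 fold change 0.10). The share over all genes tested was 7.91% lower and 2.61% higher. The 4 were Pde4b, Pde4d, Pde2a and Adcy4. Pde4b, a phosphodiesterase of immune cells that degrades cyclic AMP, had 60.8 and 60.9 CPM in HFD and 381 and 270 CPM in CD libraries (5.35-fold lower, log2 fold change -2.42, SE 0.21, edgeR adjusted p = 0.00637). It was called in each fit without 1 library. Pde4d was 3.06-fold lower (edgeR adjusted p = 0.036) and the cyclase gene Adcy4 4.55-fold lower (0.0351). Pde2a had 1 and 3 counts in HFD and 45 and 30 counts in CD libraries (edgeR adjusted p = 0.0232). Without HFD mouse 1 the calls of Pde4d (edgeR adjusted p = 0.124) and Pde2a (0.112) ended, and without HFD mouse 2 those of Adcy4 (0.12) and Pde2a (0.0646).

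Of 21 G protein subunit genes, Gng11 rose and Gna15 fell (median log2 fold change 0.16), where 10.5% of all genes tested were called. Gng11, a gamma subunit, had 48.4 and 43.2 CPM in HFD and 26.8 and 20.2 CPM in CD libraries (edgeR adjusted p = 0.0326). Gna15, a Gq-class alpha subunit of blood cells, had 51.6 and 51.5 CPM in HFD and 84.9 and 76.5 CPM in CD libraries (edgeR adjusted p = 0.0405). Gnai2, the main Gi alpha subunit of leukocytes and chosen after its values were seen, had 1201 and 1384 CPM in HFD and 1529 and 1402 CPM in CD libraries (edgeR adjusted p = 0.497). Both calls ended without either HFD mouse (edgeR adjusted p from 0.0794 to 0.244), and that of Gna15 also without CD mouse 1 (0.0602). More subunit genes were called without CD mouse 1 or CD mouse 2, as were more genes of the whole table. Of 7 arrestin and receptor kinase genes edgeR called 0, as did DESeq2 and limma-voom, with 2 at an unadjusted p below 0.05. Arrb1 had the smallest p, with 145 and 189 CPM in HFD and 235 and 252 CPM in CD libraries (edgeR adjusted p = 0.0998).

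Enzymes that make or use the ligands changed little by comparison, in a table where 10.5% of all genes tested were called. Of 4 tested oxysterol enzymes, Cyp27a1, a sterol hydroxylase of mitochondria, rose 1.51-fold (edgeR adjusted p = 0.0482), with 56.5 and 52.5 CPM in HFD and 37.3 and 34.9 CPM in CD libraries. Ch25h, the enzyme that starts the synthesis of the Gpr183 ligand and chosen after its values were seen, had 51.8 and 65.1 CPM in HFD and 60.9 and 83.6 CPM in CD libraries (edgeR adjusted p = 0.353). Of 12 genes of succinate and itaconate metabolism, Slc25a10, the mitochondrial dicarboxylate carrier, rose 1.57-fold (edgeR adjusted p = 0.0419). Acod1, which makes itaconate, had 109 and 93.01 CPM in HFD and 276 and 160 CPM in CD libraries (edgeR adjusted p = 0.0543). Of 10 genes of acid and lactate handling, Car9, a carbonic anhydrase induced by hypoxia, rose 1.93-fold (edgeR adjusted p = 0.0405), with 15.6 and 20.4 CPM in HFD and 9.49 and 9.19 CPM in CD libraries. Of 9 ketone body genes edgeR, DESeq2 and limma-voom called 0, with 2 at an unadjusted p below 0.05. Of 8 tested kynurenine pathway genes these tools also called 0, with Ido2 at an unadjusted p below 0.05 (edgeR adjusted p = 0.107). Calls of Cyp27a1, Slc25a10 and Car9 ended without either HFD mouse (edgeR adjusted p from 0.104 to 0.273). That of Cyp27a1 also ended without CD mouse 2 (edgeR adjusted p = 0.0525) and that of Slc25a10 without CD mouse 1 (0.0689).

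**Figure D4:**
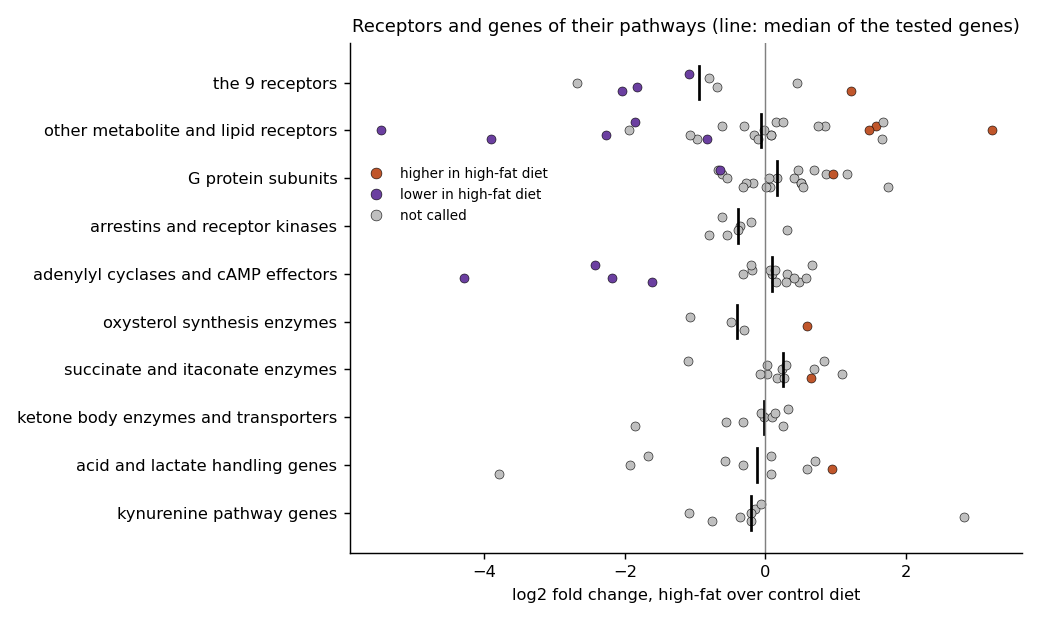
Log2 fold change, HFD over CD, of every tested gene of the receptor and pathway lists, with the median of each list as a line. The calls among the receptors lie at -2.03, -1.83, -1.09 and 1.21, and the lowest values of the cyclic AMP list belong to Pde2a and Pde4b.

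The sorted cells carried macrophage transcripts in every library, and markers of other cells differed between the diets. For the counts below, the share over all genes tested was 2.61% called higher and 7.91% called lower in HFD. The most abundant macrophage markers were C1qa, C1qb and Lyz2, none of them called. C1qa had 3129 and 3194 CPM in HFD and 1462 and 2720 CPM in CD libraries (edgeR adjusted p = 0.225). C1qb had 2879 and 3052 CPM in HFD and 1643 and 2777 CPM in CD libraries (edgeR adjusted p = 0.320). Lyz2 had 2753 and 2815 CPM in HFD and 4245 and 3522 CPM in CD libraries (edgeR adjusted p = 0.129). The summed level of 14 macrophage markers was 17387 and 18312 CPM in HFD and 15495 and 18201 CPM in CD libraries. Of these markers edgeR called 0, with 3 at an unadjusted p below 0.05, limma-voom 0 and DESeq2 1. Of 17 tested neutrophil markers 11 were lower and 0 higher in HFD, with Lcn2, S100a8, S100a9 and Hdc at the smallest p, and the summed level of the 20 listed was 285 to 317 CPM in HFD and 428 to 838 CPM in CD libraries, of which Acod1, Mmp9 and Csf3r, which macrophages also make, took the most. Ly6g, a defining neutrophil marker chosen after its values were seen, had 0 and 0 counts in HFD and 10 and 30 counts in CD libraries. S100a9, also of neutrophils, had 2.75 and 2.19 CPM in HFD and 55.4 and 24.8 CPM in CD libraries. Without HFD mouse 1, 2 neutrophil markers were called lower, and without HFD mouse 2, 3. Monocyte markers summed to 1384 and 955 CPM in HFD and 3157 and 1283 CPM in CD libraries. All 12 were tested, with Nr4a1 and Ace lower and 0 higher, and neither call held without HFD mouse 1 or HFD mouse 2. Nr4a1, also an immediate early gene, took 273 and 258 CPM of the HFD sums and 1363 and 613 of the CD sums. Ccr2, not called, had 534 and 339 CPM in HFD and 455 and 305 CPM in CD libraries. Of the 12 log2 fold changes, 3 were positive and 9 negative. Dendritic cell markers summed to 290.3 to 319 CPM in HFD and 393 to 552 CPM in CD libraries (14 tested, Clec9a, Wdfy4 and Cd209a lower, 0 higher, and 1 lower without either HFD mouse). T and NK cell markers summed to 44 to 48.1 CPM in HFD and 37.9 to 133 CPM in CD libraries (16 tested, 1 lower, 1 higher). B and plasma cell markers summed to 202 and 188 CPM in HFD and 118 and 236 CPM in CD libraries (6 tested, Igkc and Cd79a lower, 0 higher). Ighm, not called, took 186 and 170 CPM of the HFD sums and 101 and 203 of the CD sums. Igkc had 0.0801 and 0.13 CPM in HFD and 5.18 and 12.8 CPM in CD libraries (edgeR adjusted p = 0.00935). Cd79a had 0.0267 and 0.0782 CPM in HFD and 2.03 and 1.85 CPM in CD libraries (edgeR adjusted p = 0.0111). Fibroblast and pericyte markers, at 2064 to 2068 CPM in HFD and 782 to 1043 CPM in CD libraries, had 7 of 12 genes called higher. Epithelial and tumour markers summed to 41.4 and 48.3 CPM in HFD and 167 and 138 CPM in CD libraries. Of 9 tested 8 were lower, and only Vil1 and Cldn4 stayed called without HFD mouse 1 or HFD mouse 2. Cdh1, not called, took 38.5 and 45.2 CPM of the HFD sums and 144 and 57 of the CD sums. Krt8 had 0.0801 and 0.0521 CPM in HFD and 2.31 and 16.2 CPM in CD libraries. Vil1 had 0.0801 and 0.13 CPM in HFD and 2.53 and 2.42 CPM in CD libraries. Endothelial markers summed to 44.1 to 61.2 CPM in HFD and 52.6 to 93.1 CPM in CD libraries (6 tested, 0 called by edgeR and limma-voom, 1 by DESeq2, 3 at an unadjusted p below 0.05). Of 17 immediate early genes 5 were lower and 0 higher in HFD, Nr4a3 and Nr4a2 among them. At an unadjusted p below 0.05 there were 11, in both directions, and 4 of the 17 log2 fold changes were positive and 13 negative. Fos, not called and chosen after its values were seen, had 2822 and 2724 CPM in HFD and 2053 and 1663 CPM in CD libraries. Of 7 tested mitochondrially encoded genes edgeR called 2 higher, limma-voom called 1 and DESeq2 called 7. All 7 had a positive log2 fold change and an unadjusted edgeR p below 0.05. The summed level of the 13 listed was 24710 and 14374 CPM in HFD and 6515 and 9532 CPM in CD libraries. The part of any of these lists in the results for the receptors was not tested.

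**Figure D5:**
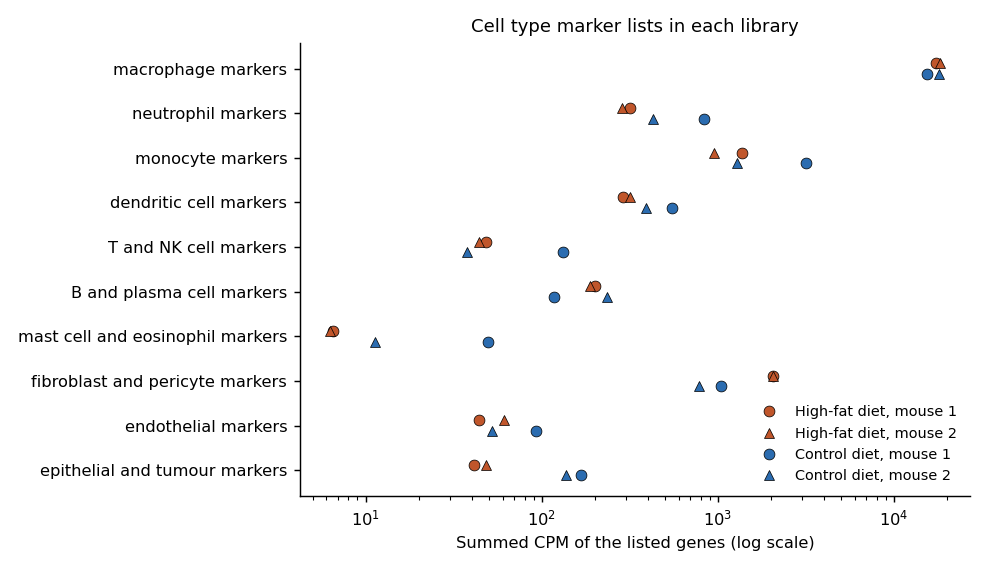
Summed CPM (log scale) of each cell type marker list in each library. Macrophage markers sum to 15495 to 18312 CPM in the 4 libraries. CD mouse 1 has the highest sum for every list but the macrophage, B and plasma cell, and fibroblast and pericyte markers.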

How the data were processed

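The authors deposited counts, whole numbers of reads per gene that had not been normalized, for 53379 Ensembl identifiers in 4 libraries. The submitters' processing notes list the builds GRCm38 and mm10 and the tools BWA 0.7.12, DESeq2 1.24.0, cutadapt 1.15 and FastQC 0.11.5. Their roles, the counting program, its strand setting and the annotation were not given in the sources used here. Symbols, positions and exon lengths came from GENCODE mouse release 21 (GRCm38). Coordinates of Gpr84 and Ffar4 are not given because their identifier versions differ there. Their levels and ranks per kb, and the shared bases and neighbour distance of Gpr84, rest on that release and carry the same limit. The filter filterByExpr (minimum count 10, minimum total 15) left 18422 genes, which edgeR 4.0.16 (R 4.3.3) tested with TMM scaling, robust dispersions and the quasi-likelihood test with diet as the only term. An SE is the log2 fold change divided by the square root of F. Alternatives used DESeq2 1.42.0, limma 3.58.1 (limma-voom), other scalings and filters, and fits without each library. The steps were tested on simulated data.

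The receptors and all lists were chosen with earlier results of these data known. All 9 receptors are named. From each list, up to 4 called genes of smallest p were eligible to be named, or the 1 of smallest p where none was called, for marker lists also the 3 of highest mean CPM, and for each receptor the 2 genes of nearest profile. The text gives a part of the marker genes so chosen, and 1 gene of the lists is not reported here. Libraries are titled by mouse and were taken as separate animals, 2 per diet. The reads carry no molecular identifiers, so limits on counts of 0 cover counting error only.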

Additional observations from a re-analysis of the deposited data

How the results depend on the processing

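The direction of the log2 fold change was the same in all 13 alternatives for each of the 8 receptors. Called counts moved more. Without a filter on low counts 1552 genes were called higher and 2231 lower, with protein-coding nuclear genes alone 274 and 914, with DESeq2 1080 and 1874, all against 480 and 1457. In the fits without 1 library the counts ran from 71 to 1934 higher and from 300 to 2534 lower. The receptors called higher ranged from 0 to 2 and those called lower from 0 to 5 in those fits, and with protein-coding genes alone 0 were called higher. The cause was not tested.

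The mouse numbers do not pair the animals by any label, and the deviations of same-numbered mice from their diet mean had a correlation of -0.196 across 10214 genes. With the mouse number as a replicate block, 567 genes were called higher and 1481 lower, and the same 4 receptors were called. With the numbers crossed, an alternative chosen after seeing the data, 909 were higher and 1546 lower, again with 1 receptor higher and 3 lower. Depth limits Ffar4, with 6 to 16 counts per library, Sucnr1, at 0, and Ffar2, with 31 to 35 counts in 3 of the 4 libraries.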
